A study of Mus musculus with 224 samples.

Results

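The soleus of C57Bl/6J mice fed a diet high in fat (HFD) was compared with that of mice on chow (RC) on day 13. The members are the 8 soleus libraries that the labels assign to strain C57Bl/6J and time D13: 4 animals on HFD, titled 1HF230S, 1HF231S, 1HF252S and 1HF253S, and 4 on RC, titled 1RC228S, 1RC229S, 1RC252S and 1RC254S. Values per animal are given in this order below. They are 8 of the 72 soleus libraries of a series that also covers liver and visceral adipose tissue, with 2 further inbred strains, DBA/2J and BALB/cJ, 2 diets and 3 days. Days are given as on the sample labels (D05, D13 and D33), while the text for the whole series has 13 days in place of 33, so the length of the longest feeding is uncertain. No genotype change or drug is given for any group, and no source used here gives the age, the sex or what the diets contained. Every other group used below is also 4 soleus libraries of 1 strain, 1 diet and 1 day.

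The soleus is a postural calf muscle rich in slow and fast oxidative fibres, which draw much of their energy from fatty acids. Fatty acids enter the fibre through CD36, are bound by FABP3, activated to acyl-CoA by long-chain acyl-CoA synthetases, carried into mitochondria by the carnitine shuttle (CPT1, SLC25A20, CPT2) and shortened in cycles of beta-oxidation, whose electrons pass through the electron-transferring flavoprotein to the respiratory chain. Part of the fat waits in lipid droplets coated by perilipins. Many of these genes carry binding sites for PPAR nuclear receptors, which are activated by fatty acids themselves.

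Messenger RNA was sequenced from polyadenylated transcripts, and the values are log2 CPM, read counts relative to library depth on a log2 scale. The 8 libraries held 25234416 to 29860351 reads in the table of 13637 genes. The soleus label fitted the markers: all 10 muscle fibre identity genes were measured, and their summed level was 16.45 to 16.52 on HFD and 16.42 to 16.65 on RC. Transcripts of hepatocytes, which muscle should lack, were present in some libraries. The summed level of 12 hepatocyte markers was 5.53, 2.01, 0.87 and 1.47 in the HFD animals, and 6.90, 7.72, 0.62 and 11.45 in the RC animals. 1RC254S stood apart, with 0.287% of its reads in these markers, against 0.000154% in 1RC252S, in which 4 of the 12 were at 0 reads. The 8 measured lymphocyte markers were high in 1HF252S, 1RC228S and 1RC254S, with summed levels of 4.62, 4.63 and 4.19, and lay between -0.31 and 2.19 in the other 5. The 11 white adipocyte markers summed to 11.37 to 11.80 on HFD and 11.72 to 12.04 on RC, although 9 of them had a log2 fold change above 0. The 12 hepatocyte markers all had a lower mean on HFD, with log2 fold changes from -4.48 to -3.19 and a median of -4.05. No member of the adipocyte, hepatocyte or lymphocyte lists passed the test of diet.

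Of 13637 genes tested, 78 differed between the diets at an adjusted p under 0.05 (0.572%). Of these, 70 were higher on HFD (0.513%) and 8 were lower (0.0587%), so that 89.7% of the calls were higher. In a fit of only the 8 libraries, 233 were higher and 140 lower (62.5% higher). The test was limma, fitted over all 72 soleus libraries with 1 mean for each of 18 groups and adjusted over all genes by the Benjamini-Hochberg method. At an unadjusted p under 0.05 there were 1271 genes, and the median log2 fold change of all genes was -0.01. All 4 HFD animals lay above all 4 RC animals in 69 of the 70 higher genes and below them in 8 of the 8 lower genes. Over all tested genes, the HFD animals all lay above the RC animals in 859 (6.30%) and all below in 844 (6.19%). The 78 genes were chosen by a test on these same values, so their separation largely follows from that choice. Of the 78 genes, 26 belong to a list, 13 of them to mitochondrial fatty acid oxidation. The number of calls depended on single animals: it was 19 without 1RC228S, 31 without 1HF253S, 40 without 1HF231S and 47 without 1RC229S. In a bulk tissue, more transcript per fibre and more fibres of a kind cannot be told apart.

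**Figure D1:**
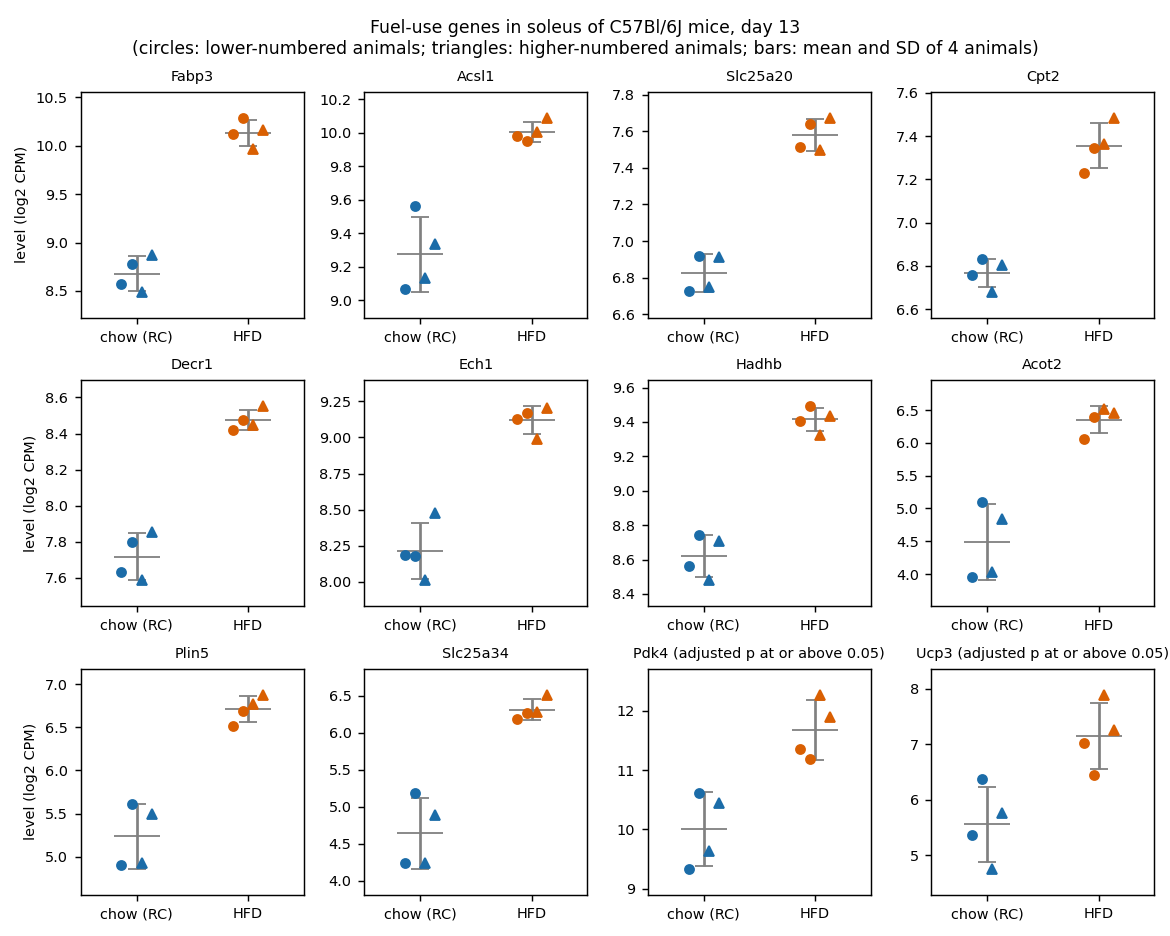
Level of 12 fuel-use genes (y axis, log2 CPM) in each of the 8 animals by diet (x axis); points are animals, with circles for the lower-numbered 4 (1HF230S, 1HF231S, 1RC228S and 1RC229S) and triangles for the higher-numbered 4, and bars give the mean and SD of 4 animals. In each panel the 4 HFD animals lie above the 4 RC animals, and Pdk4 and Ucp3 did not pass the test.

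Among genes of fatty acid uptake and binding, 3 of 11 rose (Fabp3, Acsl1 and Dbi), 0 fell, and the median log2 fold change was 0.49. Fabp3 (ENSMUSG00000028773, chromosome 4, 130308595 to 130315463, GRCm38), the fatty acid binding protein of heart and muscle, stood at 10.12, 10.29, 9.96 and 10.16 in the HFD animals. In the RC animals it stood at 8.57, 8.78, 8.49 and 8.87. The groups did not overlap, and the lowest HFD animal was more than 1 log2 unit above the highest RC animal. The level was 2.73-fold higher on HFD, with a log2 fold change of 1.45 ± 0.30 (SE) and an adjusted p of 0.00578, and the adjusted p stayed at or below 0.0473 when any 1 of the 8 animals was left out. It was 0.121 in a fit of only the 24 C57Bl/6J libraries. Fabp3-ps1, a processed pseudogene of it whose reads can be confused with those of the parent gene, rose by a log2 fold change of 1.63 ± 0.30 (SE). Acsl1, the main long-chain acyl-CoA synthetase of muscle, had mean levels of 10.01 ± 0.06 (SD, HFD, n = 4) and 9.28 ± 0.22 (SD, RC, n = 4), a log2 fold change of 0.73 ± 0.18 (SE) with an adjusted p of 0.0394. Dbi, the acyl-CoA binding protein, had a log2 fold change of 0.63 ± 0.15 (SE) with an adjusted p of 0.0297. Acsl1 lost its call without any 1 animal except 1RC229S, and Dbi without 1HF231S, 1HF253S, 1RC228S, 1RC229S or 1RC252S, with adjusted p up to 0.242 and 0.204.

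Cd36, the fatty acid translocase of the plasma membrane, did not pass the test in the fit of all 72 libraries although its animals separated. It stood at 10.28, 10.29, 10.43 and 10.44 on HFD and 9.68, 9.84, 9.72 and 9.83 on RC, a log2 fold change of 0.59 ± 0.18 (SE) with an adjusted p of 0.143. Its adjusted p was 0.00643 when the day 33 chow library 1RC210S was left out of the fit, and 0.0025 with only the 8 libraries. That library stood apart from all others in Myh7, the slow myosin heavy chain, at 6.20 against at least 12.11 in every other soleus library, and it enters the common estimate of the spread. Slc27a1, a fatty acid transport protein, had a log2 fold change of 0.49 ± 0.17 (SE, adjusted p = 0.213), and Acsl6, another synthetase, one of -0.32 ± 0.16 (SE, adjusted p = 0.541).

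The carnitine shuttle and beta-oxidation gave the fullest response. Of 20 mitochondrial fatty acid oxidation genes 13 rose and 0 fell, the log2 fold changes ran from 0.10 to 0.91 and their median was 0.62, against -0.01 over all genes. In 17 of the 20 the diets did not overlap, with HFD above, against 6.30% of all genes. Slc25a20, the carnitine-acylcarnitine carrier of the inner membrane, stood at 7.51, 7.64, 7.50 and 7.67 on HFD and 6.73, 6.92, 6.75 and 6.91 on RC. It was 1.69-fold higher, with a log2 fold change of 0.76 ± 0.14 (SE) and an adjusted p of 0.00292, with the 4 animals of each diet within 0.2 log2 units of each other. Cpt2, which reforms acyl-CoA inside the mitochondrion, had a log2 fold change of 0.59 ± 0.13 (SE) and an adjusted p of 0.0104. The outer-membrane enzymes did not pass: Cpt1a had a log2 fold change of 0.53 ± 0.26 (SE, adjusted p = 0.535), and Cpt1b one of 0.31 ± 0.31 (SE, adjusted p = 0.806). Cpt1b, the muscle form, was recorded at only 0.92 to 1.91 in the 8 animals. GENCODE annotates Gm44502 over it on the same strand, and how reads in shared exons were counted is not known here, so its value is uncertain.

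Within the beta-oxidation cycle, Decr1 and Ech1 had the smallest adjusted p values. Decr1 (ENSMUSG00000028223, chromosome 4, 15917240 to 15945507), the dienoyl-CoA reductase needed for polyunsaturated fatty acids, stood at 8.42, 8.48, 8.45 and 8.55 on HFD. On RC it stood at 7.63, 7.80, 7.59 and 7.85, so the diets were far apart compared with the spread within them. The level was 1.69-fold higher, with a log2 fold change of 0.76 ± 0.12 (SE) and an adjusted p of 0.000427. Ech1, which shifts double bonds of dienoyl-CoA, stood at 9.13, 9.17, 8.99 and 9.20 on HFD and 8.18, 8.18, 8.01 and 8.48 on RC, a 1.87-fold difference (log2 fold change 0.91 ± 0.15 (SE), adjusted p = 0.000817). Hadha and Hadhb, the subunits of the trifunctional protein that carries out the last steps on long chains, had log2 fold changes of 0.67 ± 0.14 (SE) and 0.79 ± 0.15 (SE). The very-long-chain and long-chain acyl-CoA dehydrogenases Acadvl and Acadl, which start the cycle, had log2 fold changes of 0.60 ± 0.13 (SE) and 0.65 ± 0.15 (SE), each past the threshold. The medium-chain and short-chain enzymes Acadm and Acads reached 0.47 ± 0.13 (SE) and 0.53 ± 0.14 (SE) and missed it, with adjusted p of 0.0718 and 0.0707. The remaining genes that rose were Acaa2, the mitochondrial thiolase, Hadh, the short-chain hydroxyacyl-CoA dehydrogenase, the enoyl-CoA isomerases Eci1 and Eci2, and Etfdh, which passes the electrons to ubiquinone, with log2 fold changes from 0.52 to 0.76. Echs1, the short-chain enoyl-CoA hydratase, differed least, at 0.10 ± 0.11 (SE).

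**Figure D2:**
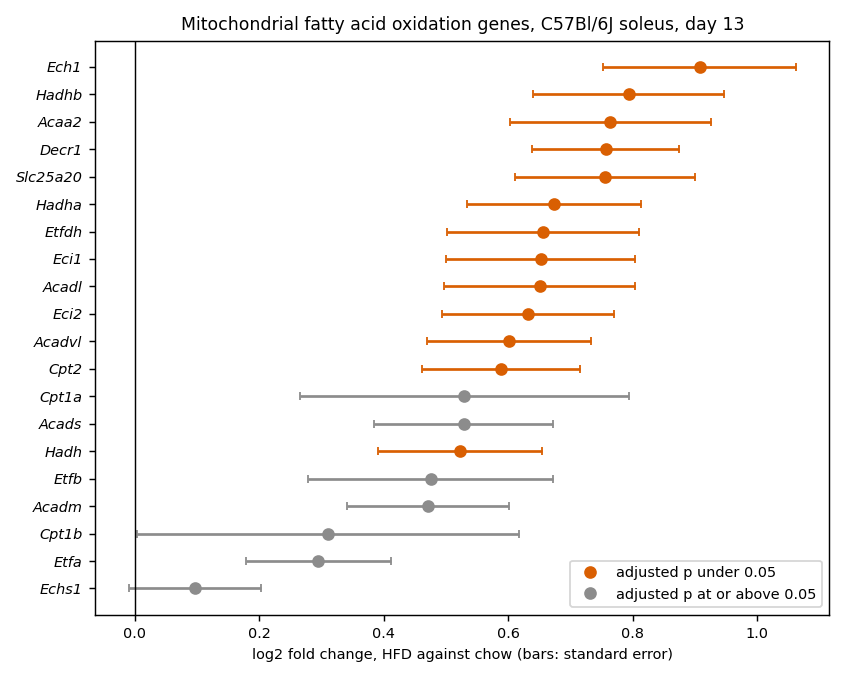
Log2 fold change of HFD against chow (x axis, with the standard error) for each of the 20 mitochondrial fatty acid oxidation genes (y axis); orange points passed an adjusted p of 0.05. The values run from 0.10 for Echs1 to 0.91 for Ech1, and 13 genes passed.

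The mean log2 CPM over these 20 genes was 7.85, 7.87, 7.86 and 7.97 in the HFD animals and 7.24, 7.34, 7.24 and 7.40 in the RC animals. All RC animals lay below all HFD animals. Within RC, 1RC229S and 1RC254S had both the higher oxidation means and the higher hepatocyte levels, while 1RC252S and 1RC228S had the same mean of 7.24 at summed hepatocyte levels of 0.62 and 6.90. The hepatocyte level of 1RC252S was below that of every HFD animal. With the mean level of the hepatocyte markers as a covariate, added after seeing the data, 12 of the 20 genes passed and the median log2 fold change of the 20 was 0.63. The covariate was a linear term on the log2 scale, which does not describe transcripts that add to the counts. The part of hepatocyte transcripts in the oxidation means was not tested. Without the covariate, the median log2 fold change of the 20 genes was 0.61 among the 4 lower-numbered animals (1HF230S, 1HF231S, 1RC228S and 1RC229S) and 0.65 among the 4 higher-numbered ones. The number of genes that passed was smaller without some animals, at 5 without 1RC228S, 6 without 1HF253S and 8 without 1RC252S, and it was 4 in a fit of only the 24 C57Bl/6J libraries, while the median then lay between 0.58 and 0.62.

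**Figure D3:**
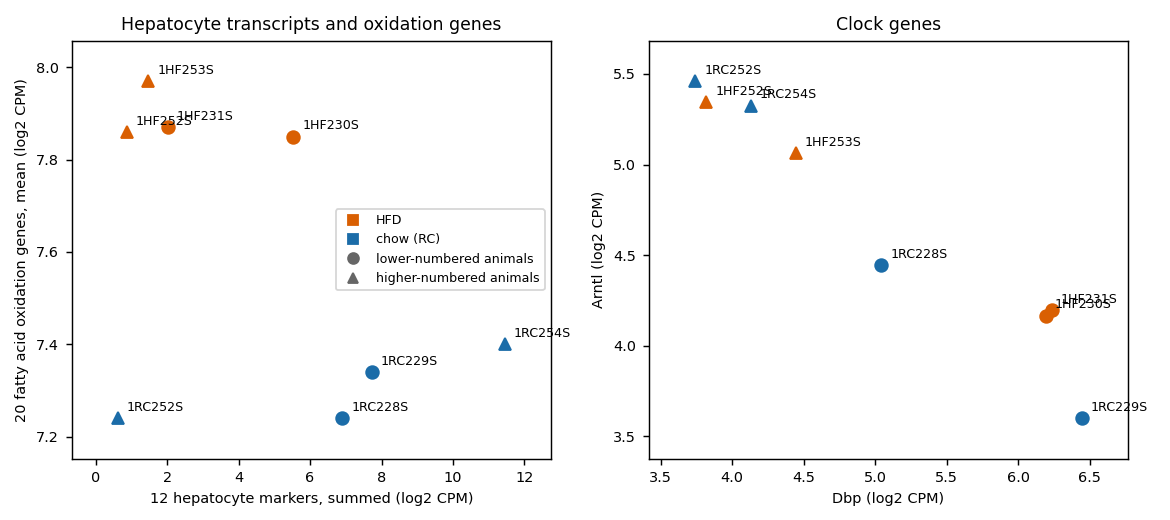
Left, mean log2 CPM of the 20 fatty acid oxidation genes (y axis) against the summed log2 CPM of 12 hepatocyte markers (x axis) in each of the 8 animals, labelled by title; right, log2 CPM of Arntl (y axis) against Dbp (x axis). In the oxidation genes the RC animals lie below all HFD animals, and the RC hepatocyte levels run from 0.62 to 11.45. The clock genes part the 4 lower-numbered animals from the 4 higher-numbered ones.

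Among acyl-CoA thioesterases and peroxisomal genes, 4 of 11 rose and 0 fell, with a median log2 fold change of 0.42. Acot2 (ENSMUSG00000021226, chromosome 12, 83987861 to 83993873), a mitochondrial thioesterase that splits acyl-CoA into free fatty acid and CoA, stood at 6.06, 6.39, 6.51 and 6.46 on HFD and 3.96, 5.11, 4.03 and 4.84 on RC. The HFD animals were close together and the RC animals spread over more than 1 log2 unit, without overlap. The level was 3.66-fold higher, with a log2 fold change of 1.87 ± 0.36 (SE) and an adjusted p of 0.00296. Acot1, its cytosolic and closely similar paralog, had a log2 fold change of 2.15 ± 0.53 (SE, adjusted p = 0.0361), and reads of the pair may be confused. Pex11a, a peroxisome division factor, had mean levels of 5.10 ± 0.13 (SD, HFD, n = 4) and 4.30 ± 0.28 (SD, RC, n = 4), a log2 fold change of 0.80 ± 0.13 (SE) with an adjusted p of 0.000583. Crat, the carnitine acetyltransferase, which moves acetyl groups between CoA and carnitine, had a log2 fold change of 0.42 ± 0.08 (SE) and an adjusted p of 0.00292. The peroxisomal thiolase Acaa1a was at 0.09 ± 0.15 (SE), not past the threshold. Acaa1b had a log2 fold change of -2.84 ± 1.47 (SE, adjusted p = 0.551), which rested on 1RC254S at 5.79, the library with the most hepatocyte transcripts, against -1.68 to 1.38 in the other 7.

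Of 14 lipid droplet and lipolysis genes 1 rose and 0 fell, with a median log2 fold change of 0.42. The diets separated upward in 6 of them, against 6.30% of all genes. Plin5 (ENSMUSG00000011305, chromosome 17, 56111601 to 56117596), the perilipin of oxidative tissues that sits between droplets and mitochondria, stood at 6.52, 6.68, 6.77 and 6.88 on HFD and 4.90, 5.62, 4.93 and 5.49 on RC. It was 2.78-fold higher, with a log2 fold change of 1.48 ± 0.33 (SE) and an adjusted p of 0.0156, and the call was lost without 1HF253S, 1RC228S or 1RC252S, with adjusted p of 0.0824, 0.117 and 0.0693, and with only the 24 C57Bl/6J libraries, at 0.0697. Plin2, the widely expressed perilipin, overlapped between the diets (log2 fold change 0.45 ± 0.19 (SE), adjusted p = 0.422). Pnpla2, the adipose triglyceride lipase, had a log2 fold change of 0.65 ± 0.17 (SE) and an adjusted p of 0.0623. Adipocyte markers share several of these genes, such as Lipe and Cidec, and no white adipocyte marker passed.

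Of 5 other genes with large differences, 4 belong to no list and Btnl9 is an endothelial marker. Slc25a34 (ENSMUSG00000040740, chromosome 4, 141618824 to 141623821), a mitochondrial carrier family member, stood at 6.19, 6.26, 6.28 and 6.51 on HFD and 4.25, 5.19, 4.24 and 4.89 on RC. This was a 3.18-fold difference (log2 fold change 1.67 ± 0.35 (SE), adjusted p = 0.00781). The call was lost without 1RC228S (adjusted p = 0.0766) and with only the 24 C57Bl/6J libraries (adjusted p = 0.104). Mlycd, malonyl-CoA decarboxylase, which removes the inhibitor of CPT1, stood at 7.41, 7.38, 7.53 and 7.67 on HFD and 6.35, 6.83, 6.42 and 6.86 on RC (log2 fold change 0.88 ± 0.21 (SE), adjusted p = 0.0259). Stom, the membrane protein stomatin, had a log2 fold change of 0.94 ± 0.16 (SE) with an adjusted p of 0.000583. Phlda3, a pleckstrin-homology protein that restrains Akt, reached 0.92 ± 0.23 (SE, adjusted p = 0.0392), and Btnl9 0.87 ± 0.22 (SE, adjusted p = 0.0469). Leaving out 1 animal ended the call of Mlycd in 5, Phlda3 in 6 and Btnl9 in 8 of 8 cases, with adjusted p up to 0.20, 0.332 and 0.20. Of the 12 endothelial markers only Btnl9 passed, and their summed level was 9.68 to 9.79 on HFD and 9.57 to 9.76 on RC.

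Promoters of genes that rose together are shown because PPAR receptors bind paired copies of the hexamer AGGTCA. The windows run from 250 bases before to 50 after the annotated start, from RefSeq on GRCm38.p6, and capitals mark the hexamer on either strand (AGGTCA or TGACCT). Slc25a34 lies at chr4:141623785-141624084 and Plin5 at chr17:56117499-56117798, both on the minus strand. Acadvl lies at chr11:70015379-70015678, minus strand, and was chosen after the values were seen. It was the only one with a match among the 11 oxidation genes that rose and had windows. Only windows with the hexamer are shown, and each holds 1 exact copy, not a pair. Plin5 has 2 windows, of which 1 is shown.
Slc25a34: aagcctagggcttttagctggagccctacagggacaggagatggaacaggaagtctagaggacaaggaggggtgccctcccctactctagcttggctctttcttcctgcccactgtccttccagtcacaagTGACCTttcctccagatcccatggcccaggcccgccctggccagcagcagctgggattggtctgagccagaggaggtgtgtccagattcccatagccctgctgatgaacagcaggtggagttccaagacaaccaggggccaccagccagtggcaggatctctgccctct
Plin5: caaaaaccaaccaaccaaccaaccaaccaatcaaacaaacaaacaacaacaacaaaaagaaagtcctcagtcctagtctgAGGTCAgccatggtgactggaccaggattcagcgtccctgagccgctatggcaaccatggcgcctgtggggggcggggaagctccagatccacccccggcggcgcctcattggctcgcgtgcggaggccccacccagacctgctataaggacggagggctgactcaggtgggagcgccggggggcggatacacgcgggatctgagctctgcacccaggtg
Acadvl: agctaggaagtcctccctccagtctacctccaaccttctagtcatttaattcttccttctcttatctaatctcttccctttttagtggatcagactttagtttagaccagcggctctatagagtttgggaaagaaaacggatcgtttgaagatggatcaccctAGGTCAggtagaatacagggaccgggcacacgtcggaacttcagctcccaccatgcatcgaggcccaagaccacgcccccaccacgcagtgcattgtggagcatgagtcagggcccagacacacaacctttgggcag
Of the genes higher on HFD, 54 had windows in the table, and 8 of their 65 windows held the hexamer (12.3%), against 16.3% of all 32851 windows. Among the oxidation genes that rose the count was 1 of 11 windows (9.09%). The hexamer was therefore no more frequent in these windows than in promoters at large, which says nothing about sites elsewhere.

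Few genes of glucose use passed. Of 19 genes of glucose uptake and glycolysis 1 rose and 0 fell, with a median log2 fold change of 0.07. All HFD animals lay above all RC animals in 3 of the 19 and below them in 1, against 6.30% and 6.19% of all genes. The gene that rose was Fbp2, the muscle fructose bisphosphatase, which runs opposite to glycolysis. It stood at 4.38, 4.31, 4.47 and 4.33 on HFD and 2.16, 3.08, 2.58 and 2.97 on RC, a 3.19-fold higher level, with a log2 fold change of 1.67 ± 0.33 (SE) and an adjusted p of 0.00394 that was lost only without 1RC228S (adjusted p = 0.0574). Of 12 genes of pyruvate dehydrogenase and its regulators 1 rose: Mpc2, a subunit of the mitochondrial pyruvate carrier, with a log2 fold change of 0.41 ± 0.10 (SE, adjusted p = 0.0295). Leaving out 1 of 5 animals (1HF230S, 1HF231S, 1HF253S, 1RC228S or 1RC229S) ended that call, with adjusted p up to 0.221. Its partner Mpc1 differed by 0.04 ± 0.10 (SE). Of the 12 pyruvate dehydrogenase genes, 5 separated upward and 2 downward, and the median log2 fold change was 0.11. Of 12 glycogen genes and 17 insulin and FoxO signalling genes 0 passed, with medians of -0.02 and -0.13.

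Pdk4 and Ucp3, well-known responders of muscle to fatty acids, had large differences that did not pass. Pdk4, the kinase that shuts pyruvate dehydrogenase, stood at 11.36, 11.18, 12.27 and 11.90 on HFD and 9.34, 10.61, 9.63 and 10.44 on RC. Every HFD animal was above every RC animal, with a log2 fold change of 1.67 ± 0.47 (SE) and an adjusted p of 0.0777. Ucp3, the muscle uncoupling protein, stood at 7.01, 6.44, 7.89 and 7.25 on HFD and 5.37, 6.36, 4.76 and 5.75 on RC. Here the lowest HFD and the highest RC animal nearly met, and the log2 fold change was 1.59 ± 0.51 (SE) with an adjusted p of 0.175. With only the 8 libraries of this comparison in the fit, the adjusted p was 0.028 for Pdk4 and 0.0488 for Ucp3. Of 16 PPAR and PGC-1 regulators and uncoupling proteins 0 passed. Their median log2 fold change was -0.01. Of these genes 4 lay higher and 3 lower in all HFD than in all RC animals, against 6.30% and 6.19% of all genes. The 3 lower ones were Ppara, Ppargc1a and Rxra. Ppargc1a, the coactivator of mitochondrial growth, had a log2 fold change of -0.68 ± 0.49 (SE, adjusted p = 0.705).

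Downstream of beta-oxidation the differences were smaller and pointed the same way. Of 26 nuclear genes of the respiratory chain and ATP synthase 1 rose, while 26 had a log2 fold change above 0, and the median was 0.26. The diets separated upward in 17 of them, against 6.30% of all genes. Cycs, cytochrome c, was the 1 that passed, at 7.33 ± 0.13 (SD, HFD, n = 4) and 6.81 ± 0.17 (SD, RC, n = 4) with a log2 fold change of 0.52 ± 0.10 (SE) and an adjusted p of 0.00346, which was 0.068 without 1RC228S. Of 19 citric acid cycle genes 0 passed, 9 separated upward (against 6.30% of all genes) and the median was 0.19. The mean level of the respiratory chain genes was 8.95 to 9.24 on HFD and 8.75 to 8.89 on RC. Hspd1, the mitochondrial chaperonin and the 1 of 18 heat shock and unfolded protein genes that rose, had a log2 fold change of 0.40 ± 0.07 (SE, adjusted p = 0.00269). Among the 52 called genes outside the lists were further mitochondrial ones, picked here after their values were seen. Tfam, which packages and transcribes mitochondrial DNA, had a log2 fold change of 0.31 ± 0.07 (SE), Coq3, an enzyme of ubiquinone synthesis, one of 0.54 ± 0.12 (SE), and Alas1, the first enzyme of haem synthesis, one of 0.48 ± 0.12 (SE). Alas1 was the called gene in which the diets overlapped.

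**Figure D4:**
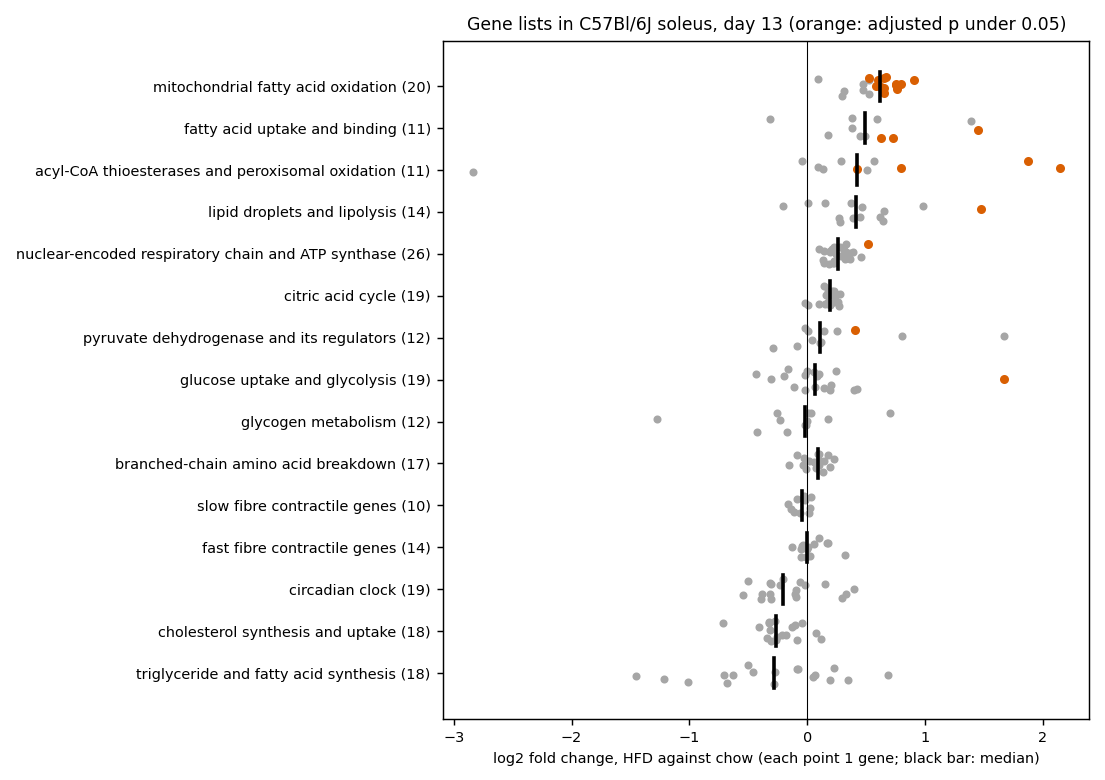
Log2 fold change of HFD against chow (x axis) for each measured gene of 15 lists (y axis, with the number measured); black bars are medians and orange points passed an adjusted p of 0.05. The median falls from 0.62 for fatty acid oxidation through 0.26 for the respiratory chain to -0.28 for triglyceride and fatty acid synthesis.

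Genes that make fat leaned the other way without passing. Of 18 measured triglyceride and fatty acid synthesis genes 0 passed, and the median log2 fold change was -0.28. In all HFD animals 7 lay lower than in all RC animals and 2 lay higher, against 6.19% and 6.30% of all genes. Fasn, fatty acid synthase, stood at 5.30, 5.78, 6.03 and 6.01 on HFD and 7.38, 6.28, 7.76 and 7.52 on RC, a log2 fold change of -1.46 ± 0.53 (SE) with an adjusted p of 0.271. Acaca, the acetyl-CoA carboxylase that feeds it, had -1.01 ± 0.28 (SE) with an adjusted p of 0.0783. Both were picked after their values were seen, and both are also made in liver and fat. Fasn stood at 7.76 in 1RC252S, where the hepatocyte transcripts were lowest, and at 7.52 in 1RC254S, where they were highest. Its relation to the hepatocyte level was not tested. The summed level of 11 white adipocyte markers was 11.80, 11.48, 11.37 and 11.56 on HFD and 12.04, 11.73, 11.73 and 11.72 on RC. In this sum 3 of the 4 HFD animals lay below all RC animals. Taken singly, 9 of the 11 markers had a log2 fold change above 0, with a median of 0.37. The part of adipocytes in these differences was not tested. Of 18 cholesterol synthesis genes 0 passed and 2 had a log2 fold change above 0, with a median of -0.26.

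The 8 genes that fell form no list. Sh3rf2, a RING finger ubiquitin ligase, stood at 5.38, 5.25, 4.86 and 5.14 on HFD and 6.42, 6.28, 5.99 and 5.98 on RC, 2.01-fold lower on HFD, with a log2 fold change of -1.01 ± 0.23 (SE) and an adjusted p of 0.0172. Tln2, the talin of muscle cell attachments, had a log2 fold change of -0.45 ± 0.11 (SE, adjusted p = 0.0253). Pcm1, a scaffold of centriolar satellites, and Smc6, a subunit of a chromosome maintenance complex, had -0.41 ± 0.09 (SE, adjusted p = 0.015) and -0.34 ± 0.09 (SE, adjusted p = 0.0394). Leaving out 1 animal ended the call of Sh3rf2 in 4, Tln2 in 5, Pcm1 in 4 and Smc6 in 8 of 8 cases, with adjusted p up to 0.131, 0.121, 0.111 and 0.163. Ddhd2, a phospholipase, just missed the threshold at -0.37, with an adjusted p of 0.0524. The other 4 genes that fell were Ttc25, Adcy1, Tbc1d8 and 5930430L01Rik, outside the naming rule for their low level, with log2 fold changes from -2.45 to -0.53.

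Fibre type genes did not pass in either direction. Of 10 slow and 14 fast contractile genes 0 passed, and the medians were -0.04 and 0. Myh7, the slow myosin, stood at 13.01 ± 0.15 (SD, HFD, n = 4) and 13.17 ± 0.24 (SD, RC, n = 4), and the fast oxidative Myh2 at 13.65 ± 0.10 and 13.70 ± 0.06 (SD, n = 4 each). Myh1 stood at 12.72 ± 0.18 and 12.73 ± 0.22 (SD, n = 4 each). The log2 fold changes of Myh7, Myh2 and Myh1 were -0.163 ± 0.592, -0.045 ± 0.321 and -0.007 ± 0.31 (SE). These SEs come from the fit of all 72 libraries, which includes 1RC210S with its low Myh7. Small differences in these genes could therefore not have passed. Myh4, the myosin of fast glycolytic fibres, ranged from 7.08 to 11.30 on HFD and from 5.67 to 11.19 on RC, so its spread within each diet was far wider than the difference of 0.32 ± 1.08 (SE). The animals with the highest Myh4 on each diet, 1HF230S and 1RC252S, had means of 7.85 and 7.24 over the oxidation genes, the lowest of their own diet (tied with 1RC228S on RC). The part of fibre type in the oxidation means was not tested.

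Clock genes varied with the animals' numbers and not detectably with diet. Of 19 clock genes 0 passed for diet. Dbp, a clock output gene, stood at 6.20 and 6.24 in 1HF230S and 1HF231S and 5.04 and 6.45 in 1RC228S and 1RC229S, but at 3.82 and 4.45 in 1HF252S and 1HF253S and 3.74 and 4.13 in 1RC252S and 1RC254S. Arntl, the core activator that runs in opposite phase, stood at 3.60 to 4.44 in the 4 lower-numbered animals and 5.06 to 5.46 in the 4 higher-numbered ones. In 13 of the 19 genes these 2 sets of 4 animals did not overlap, against 590 of all 13637 genes (4.33%). Per1 was likewise higher in the lower numbers, by 0.43, while its diet difference was 0.15 ± 0.29 (SE). The labels do not say what the numbers stand for. Each diet had 2 animals in each set, so a gene that separates the diets cannot also separate the sets. Of the called genes, 69 higher and 8 lower ones separated the diets. That 0 of the 78 separated the sets therefore says nothing about the part of the numbers in the diet calls.

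Whether day 13 differed from the other days of the same strain was tested on the difference of the diet effects. Of 13637 genes 0 passed for day 13 minus day 5 (0%) and 0 for day 13 minus day 33 (0%), with 445 and 1693 at an unadjusted p under 0.05 and smallest adjusted p of 0.742 and 0.114. Of the 70 genes higher on day 13, 69 had a log2 fold change above 0 on day 5 and 70 on day 33, with medians of 0.53 and 0.58 beside 0.64 on day 13. Over all genes 46.1% and 51.3% were above 0. The 70 genes were chosen for passing on day 13, which tends to raise their median on that day. The oxidation list had medians of 0.67, 0.62 and 0.73 on days 5, 13 and 33, and no member's difference passed. Among genes at or above the median level, those of smallest p for day 5 were Lman2, Calr, Fhod3 and Mid1ip1. Mid1ip1, a regulator of acetyl-CoA carboxylase, had log2 fold changes of -1.03 on day 13 and 0.47 on day 5, a difference of -1.50 ± 0.39 (SE, adjusted p = 0.742). Among genes at or above the median level, those of smallest p for day 33 were Orai1, Dock1, Akt1s1 and Ubald1. Orai1, the pore of store-operated calcium entry, had 0.11 on day 13 and -0.43 on day 33, a difference of 0.54 ± 0.12 (SE, adjusted p = 0.133). The day 33 chow group holds 1RC210S, the library with little Myh7, and the slow contractile list had a median of 1.38 on day 33. Without this library 0 genes passed too, with 863 at an unadjusted p under 0.05. The day 33 medians and signs given here include it and were not recomputed without it. Under quantile normalization 15 genes passed for day 13 minus day 33, 13 higher and 2 lower.

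Between strains on day 13, 137 genes differed in their diet effect between C57Bl/6J and DBA/2J (1.00%), 52 with the more positive effect in C57Bl/6J and 85 with the more negative. The effect was larger in size in DBA/2J for 130 of the 137, with a median absolute log2 fold change of 0.90 against 0.25, and of these genes only Tmem246 and Csnk1d were also called for diet in C57Bl/6J. Slc20a1, a phosphate transporter, stood at 4.68, 4.91, 5.21 and 4.87 on HFD and 5.56, 5.86, 5.40 and 5.32 on RC in C57Bl/6J. In DBA/2J it stood at 5.56 ± 0.12 (SD, HFD, n = 4) and 3.32 ± 0.19 (SD, RC, n = 4), and the difference of the effects was -2.85 ± 0.46 (SE, adjusted p = 0.000688). Plekhh3 stood at 4.73 ± 0.17 on HFD and 4.12 ± 0.14 on RC in C57Bl/6J and at 4.13 ± 0.30 and 5.07 ± 0.20 in DBA/2J (SD, n = 4 each), a difference of 1.55 ± 0.28 (SE, adjusted p = 0.00384). Nop58, a nucleolar RNA modification factor, and Klf6, a zinc-finger transcription factor, differed by -0.72 ± 0.13 (SE) and -1.10 ± 0.21 (SE). In both, DBA/2J had the lower chow levels while HFD levels were close. Csnk1d, the casein kinase of the clock's period proteins, differed by 0.31 (adjusted p = 0.0413) from effects of 0.23 in C57Bl/6J and -0.08 in DBA/2J. Its diet call in C57Bl/6J was lost in 6 of 8 cases when 1 animal was left out, with adjusted p up to 0.203. The count of 137 became 46 to 125 when 1 of the 8 C57Bl/6J animals was left out, lowest without 1RC229S. In DBA/2J the 4 RC animals all had numbers of the lower set, while 2 of the 4 HFD animals had numbers of the higher set, so diet and number are partly mixed there. With the number range as a covariate 93 genes passed, 91 of them among the 137, and Slc20a1, Plekhh3, Nop58 and Klf6 still passed.

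**Figure D5:**
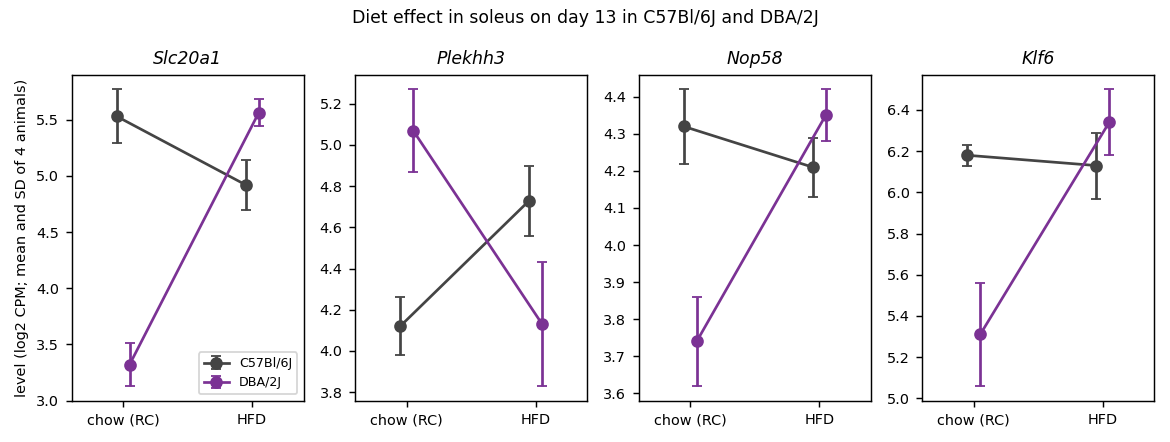
Level (y axis, log2 CPM) of 4 genes on chow and HFD (x axis) on day 13 in C57Bl/6J and DBA/2J; points are means and bars SDs of 4 animals. For Slc20a1, Nop58 and Klf6 the DBA/2J line rises steeply from chow while the C57Bl/6J line is nearly flat or falls, and for Plekhh3 the lines cross.

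The oxidation response itself was not shown to differ between strains. In the differences from DBA/2J and from BALB/cJ on day 13, 0 of 20 oxidation genes passed, with smallest adjusted p of 0.514 and 0.919 and list medians of 0.43 and 0.42 beside 0.62 in C57Bl/6J. Of the 70 higher genes 65 were above 0 in DBA/2J and 69 in BALB/cJ, with medians of 0.37 and 0.36. Their choice by the test in C57Bl/6J tends to raise their median in that strain. For BALB/cJ 0 of 13637 genes passed (0%), with 752 at an unadjusted p under 0.05. Rpl26, a ribosomal protein gene with pseudogene copies, came first there, at 0.04 in C57Bl/6J and 1.18 in BALB/cJ (difference -1.14 ± 0.25 (SE), adjusted p = 0.323), and Virma and Srpk2 were also among the genes of smallest p at or above the median level. Against the mean of the other 8 combinations of strain and day 0 genes passed (0%), with 1234 at an unadjusted p under 0.05. Pcm1, Ddhd2, Znrf1 and Csnk1d had the smallest p there, each with an adjusted p of 0.230. A p that misses the threshold does not show that the effects were equal.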

How the data were processed

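Per the labels' protocols, RNA came from an RNeasy Plus micro kit, and stranded TruSeq mRNA libraries were read as 100 bp single reads on an Illumina HiSeq. The tools were STAR 2.5.3a and edgeR on GRCm38, per the submitters' processing notes. The read counter, annotation, low-count filter and scaling method are not given in the sources used here. Here the authors deposited log2 CPM values. From these values, 2 reads had been added at the mean library size, so 0 reads stands at -3.74 and folds of low genes are understated. Whether counting used strand is not given in the sources used here, so reads where genes overlap on opposite strands (such as Zcchc17 over Fabp3, Dvl2 over Acadvl, Hspe1 over Hspd1) cannot be told apart. Whole reads were recovered for 100% of values under 2000 reads, within 0.05 reads. The header lacks a cell, so each title names the column to its right.

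Genes at or above 0 in at least 4 animals were tested, which left out 0 of 13637. GENCODE symbols matched 13624. The test was limma 3.58.1 (R 4.3.3) with a variance trend, 54 residual and 3.575 prior degrees of freedom, two-sided, adjusted by Benjamini-Hochberg, threshold 0.05. It was tested on simulated data. Title numbers were taken as animals, and p measures only the spread between these samples. Errors are SEs of the fit or SDs over animals. Named genes were at a mean log2 CPM of at least 3.73, the median gene. They were the 10 highest and 10 lowest called, up to 3 called members of each list, the 4 of smallest p in each difference, the lower genes of smallest p up to 6, and 12 genes given whatever their value. Some genes under this rule are not reported here. Members, lists and tests were chosen with earlier results of these data known. The hepatocyte and islet lists and the hepatocyte covariate were added after seeing the data. The 2 islet hormone genes gave 0 calls.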

Additional observations from a re-analysis of the deposited data

Results flagged for a closer look

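Among 108 groups of 4 animals examined for the named genes, 6 had an animal far from the other 3, and chance alone marks about 1 group in 20. These were Smc6 in 1RC229S at 6.38, the highest, Lman2 in 1HF230S at 6.60 and Dock1 in the same animal at 3.94, both the lowest, Nop58 in 1HF252S at 4.09, the lowest, Klf6 in 1HF230S at 6.37, the highest, and Virma in 1RC228S at 4.67, the lowest (log2 CPM).

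The diet effect of 6 named genes differed between C57Bl/6J and DBA/2J on day 13 by limma's test of the difference. The values were -2.85 for Slc20a1, 1.55 for Plekhh3, -0.72 for Nop58, -1.10 for Klf6, 0.45 for Orai1 and 0.31 for Csnk1d (log2 scale, C57Bl/6J minus DBA/2J), with adjusted p from 0.000688 to 0.0413. For Slc20a1, Plekhh3, Nop58 and Klf6 the diet effect in C57Bl/6J alone did not pass.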

How the results depend on the processing

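The run without a filter was the same as the main run, because the filter had left out 0 genes. Of the 78 genes, 72 passed under quantile normalization (of 90 calls), 73 without a variance trend and 72 with voom on recovered reads (of 74). A stricter filter, with fewer genes tested, kept 63 of the 78, and all 63 passed (of 109 calls). Of the 78, 32 passed with only the 24 C57Bl/6J libraries (of 62) and 53 with the hepatocyte level as a covariate (of 55). With the animal number as a replicate block the count was 78. Among the 8 animals only 1HF252S and 1RC252S share a number. Over all 72 libraries numbers recur across strains and diets, and the estimated correlation within a number was 0.007. The count was 134 without the day 33 chow library 1RC210S, 373 with only the 8 libraries (62.5% higher) and 524 with these and the number range as a covariate (62.2% higher, added after seeing the data), against 89.7% higher among the 78. The cause was not tested. It was 19 to 66 with 1 animal left out. The oxidation count of 13 became 4 with the 24 C57Bl/6J libraries and 5 to 12 with 1 animal left out. The difference from DBA/2J (137) became 76 under the stricter filter and 46 to 125 with 1 animal left out. The difference from day 33 (0) became 15 under quantile normalization and 0 to 2 with 1 animal left out. Those from day 5, BALB/cJ and the other 8 combinations remained at 0 in every alternative run. Of the 24 called named genes, 6 lost their call with the hepatocyte covariate (Phlda3, Btnl9, Smc6, Acsl1, Mpc2 and Csnk1d) and 11 with only the 24 C57Bl/6J libraries (Slc25a34, Plin5, Fabp3, Mlycd, Btnl9, Sh3rf2, Tln2, Smc6, Dbi, Acsl1 and Csnk1d). No called named gene changed sign in any alternative. What limits the number of calls, depth or the number of animals, was not tested.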
